A study of Cucumis melo with 62 samples.

Results

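HD150 and HD252 are melon (Cucumis melo) cultivars whose fruit transcript levels were set against those of 6 other cultivars grown at the same place in the same season, Weslaco in Texas in 2019. The libraries were chosen by cultivar label alone: 24 of the 62 libraries of the series, 6 of them from the HD cultivars and 18 from TH-5, TH-6, PRIMO, OC164, CRUSER and Infinite Gold, with 3 libraries per cultivar. All are labelled as wild-type fruit, harvested at maturity at about 45 days after flowering, and no treatment is labelled, so cultivar is the only labelled difference between the groups. The labels do not say how the cultivars are related or what HD stands for, nor whether libraries of a cultivar came from separate plants. P-values therefore measure the spread between these samples, which may be technical. The remaining 38 libraries (F39 and TTDV, grown at several places) lie in a table of their own and entered no test.

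Melon cultivars differ widely in how their fruit ripen. Climacteric types make a burst of ethylene and soften and turn aromatic quickly, while others ripen with little ethylene and stay firm longer, and flesh colour, sugars, acids and volatile esters are set largely by which transcripts the ripening fruit makes. At a fixed age after flowering, fruit of different cultivars can stand at different stages of this course. No source used here pairs the deposited gene IDs with product names, so genes are given by ID and no role is stated for any of them.

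Values called reads are whole reads recovered from the deposited values and divided by each library's size factor. The HD150 libraries held 9546099 to 15092420 reads, the HD252 libraries 12564637 to 21290476, and the 18 others 4041908 to 17836504, the shallowest being CRUSER replicate 1. Each of the 6 HD libraries correlated best with another library of its own cultivar over the 17131 genes tested (r from 0.956 to 0.984, a description across genes that share library and depth). Of the 3 OC164 libraries, replicate 2 was closer to HD150 replicate 2 (r = 0.953) than to OC164 replicates 1 and 3 (r = 0.951 and 0.922), and OC164 replicate 3 was closer to HD150 replicate 1 (0.936) than to its own cultivar (at most 0.934). Results on OC164 are given with and without these libraries where they move. Such cases were not confined to OC164. TH-6 replicate 1 was closest to TH-5 replicate 1 (0.955, own cultivar at most 0.946). TH-6 replicate 3 was closest to Infinite Gold replicate 1 (0.957, own at most 0.947) and CRUSER replicate 2 to TH-6 replicate 3 (0.950, own at most 0.936). PRIMO replicate 3 was closest to Infinite Gold replicate 3, with 0.951 for both this library and its own cultivar.

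The first comparison set the mean of HD150 and HD252 against the mean of the 6 other cultivars, each cultivar weighing the same. In limma, with a Benjamini-Hochberg adjusted p under 0.05 as the threshold, 6060 genes passed, which is 35.4% of the genes tested, 3111 higher (18.2%) and 2949 lower (17.2%) in the HD cultivars. The typical shift was small: the median absolute difference over all tested genes was 0.329 on the deposited log2-like scale, where a doubling from 100 reads is 0.812 units. The higher share was 51.3%, but 64.9% with voom on reads scaled to library totals, a scaling that moved the median difference of all genes from -0.01 to 0.12. This test measures cultivar differences against the spread within cultivars. With the 8 cultivar means as the unit, 2 against 6, limma gave 1 gene past the threshold (2189 at unadjusted p under 0.05), so the count describes these cultivars and not melon types at large.

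That 1 gene, MELO3C014991.2, also had the largest fall among the genes whose libraries did not overlap. It had 1014, 915 and 1067 reads in HD150 and 509, 947 and 624 reads in HD252. In the 18 other libraries it ranged from 9271 to 105737 reads, with a median of 43311. Every HD library thus lay far below every other library, including CRUSER replicate 1, the lowest of the others. Its mean reads were 62.0 times lower in the HD cultivars. On the deposited scale it fell by 5.71 ± 0.31 (SE, limma adjusted p = 8.27e-11), and with cultivar means as the unit the adjusted p was 0.00597. The level in HD150 (998 ± 77 reads, SD, n = 3) and HD252 (694 ± 227, n = 3) did not differ past the threshold (difference -0.55 ± 0.54, adjusted p = 0.644). In the separately deposited F39 and TTDV libraries the gene was at 11942 to 107750 reads (F39, 18 libraries) and 18845 to 101317 reads (TTDV, 20 libraries), so none of those came down to the HD level. The tables were deposited separately, and this last comparison is of levels only.

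MELO3C017100.2 had the largest rise under the same conditions. It had 2418, 2841 and 4807 reads in HD150 and 5119, 4463 and 2791 in HD252, against 13.9 to 2410 reads in the others (median 89.7). The HD libraries stood above all others, but only narrowly above OC164 replicate 2, which held the highest value outside the HD cultivars. OC164 had 1392 ± 1043 reads (SD, n = 3) and TH-5 had 536 ± 210 (n = 3), while TH-6, PRIMO, CRUSER and Infinite Gold had means from 22.9 to 83.7. The difference was 4.35 ± 0.32 (SE, limma adjusted p = 1.35e-08), and the adjusted p was 0.328 with cultivar means as the unit. Single F39 libraries also reached the HD level, up to 4052 reads, while the highest TTDV library had 891.

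MELO3C013004.2 was close to absent outside the HD cultivars. It had 63.3, 134 and 212 reads in HD150 and 102, 122 and 65.7 in HD252. Among the 18 others, 7 had no read and the highest, CRUSER replicate 2, had 20.2. The mean was 28.8 times higher in the HD cultivars (difference 2.53 ± 0.19, SE, limma adjusted p = 1.4e-08, and 0.0884 with cultivar means as the unit). F39 libraries reached 3.83 reads and TTDV libraries 20.6, both below the lowest HD library.

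MELO3C026045.2 fell to between 455 and 997 reads in the 6 HD libraries, against 1190 to 13524 in the others. Here the gap was narrow, since Infinite Gold replicate 2 and OC164 replicate 2 lay at 1190 and 1275 reads. The difference was -2.43 ± 0.36 (SE, limma adjusted p = 5.85e-05), and 0.306 was the adjusted p with cultivar means as the unit. F39 and TTDV libraries went down to 244 and 700 reads, so low levels were also found there. For these 4 genes, none lost the threshold or changed sign when any 1 library or any 1 of the 6 other cultivars was left out. Their choice by size and absence of overlap favours this.

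**Figure D1:**
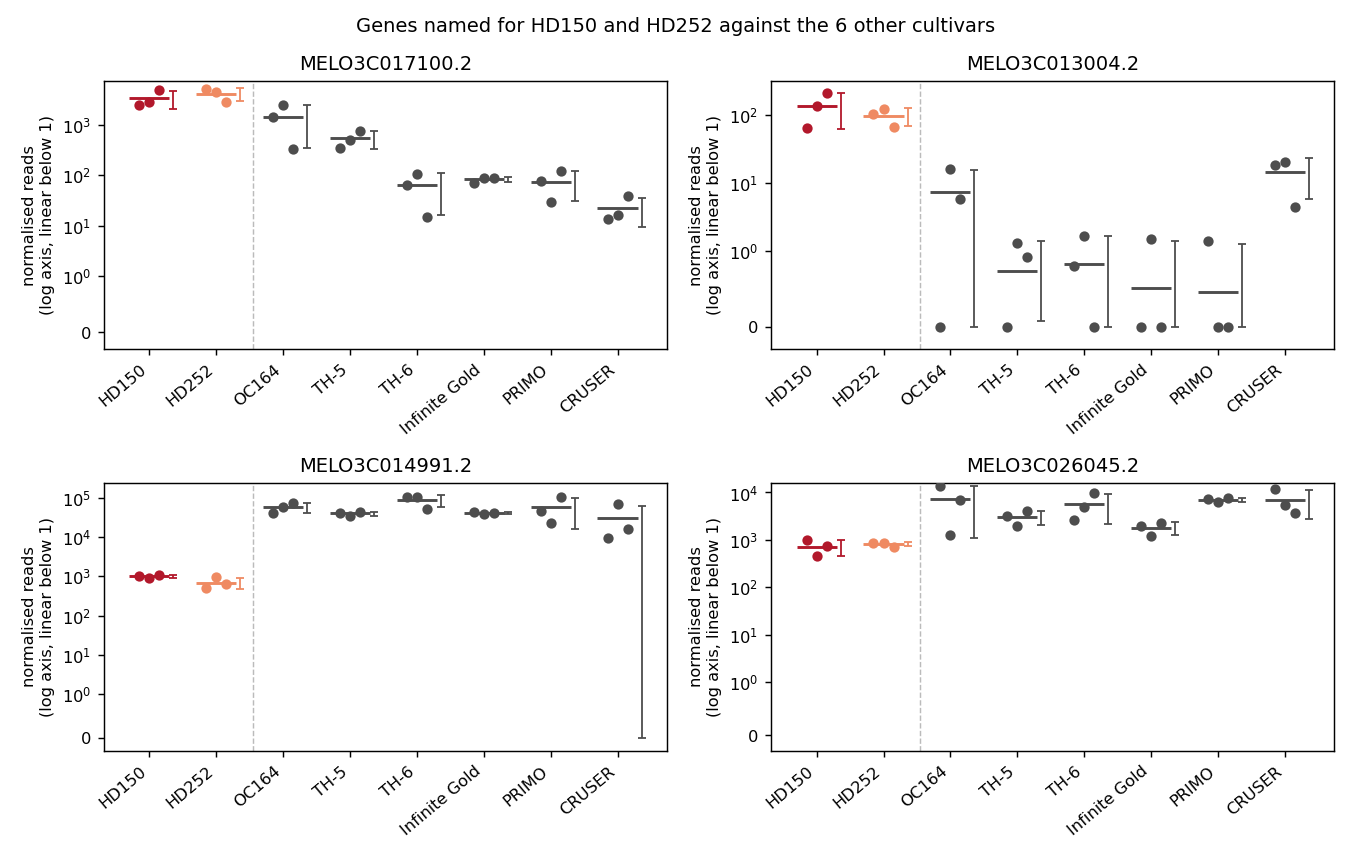
Normalised reads of the 4 genes per library (points, n = 3 per cultivar; bar, mean; whisker, SD, drawn down to 0 where it exceeds the mean) on a log axis that is linear below 1. HD150 and HD252 lie left of the dashed line; MELO3C014991.2 sits at 509 to 1067 reads there and at 9271 or more in all other libraries, and OC164 replicate 2 comes within reach of the HD level of MELO3C017100.2.

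The genes that set both HD cultivars apart were taken as those past the threshold for HD150 and for HD252 against the 6 others, with the same sign. HD150 alone differed in 2913 genes (17.0% of those tested), 1493 higher (8.72%) and 1420 lower (8.29%), and HD252 alone in 5436 (31.7%), 2906 higher (17.0%) and 2530 lower (14.8%). The same-direction genes numbered 1709 (9.98%), 863 higher (5.04%) and 846 lower (4.94%). They made up 58.7% of the HD150 calls and 31.4% of the HD252 calls. Since the comparisons share their 18 control libraries, this overlap is fixed by the choice of genes and is not tested. Another 61 genes (0.356%) passed in both but in opposite directions, 39 of them higher in HD150 and 22 higher in HD252.

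Among the 1709 same-direction genes the median absolute difference was 0.952 in HD150 and 1.06 in HD252, and 1.02 for the HD mean against 0.329 over all tested genes. Differences of at least 1 unit were found in 882 genes (467 higher and 415 lower), and of at least 2 units in 186 (105 and 81). The median level of the 863 higher genes was 325 to 391 reads in HD150 libraries and 378 to 465 in HD252 libraries. PRIMO and CRUSER libraries stood at the other end, with medians of 87.6 to 114 reads, and OC164 was closest to the HD cultivars at 235 to 346. For the 846 lower genes the medians ran from 119 to 150 reads in HD libraries, from 159 to 247 in OC164 and from 417 to 593 in PRIMO and CRUSER. The OC164 replicate 2 values of 346 and 159 were the nearest to HD in both lists, and the first lay above HD150 replicate 3 (325). That the HD libraries stand at or near the ends follows from how the genes were chosen. Both HD means lay outside the range of the 6 other cultivar means in 61.4% of the 1709 genes, against 15.3% of all tested genes, which the choice also favours.

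Of these counts, 3 moved by over 1.5 times with single HD libraries. HD150 differed in 1480, 1367 and 1721 genes without its replicate 1, 2 or 3, and HD252 in 3354 and 3029 without its replicate 1 or 2. The same-direction count was 935 and 815 without HD150 replicate 1 or 2, 1099 without the cultivar PRIMO and 2689 without OC164. With voom on library totals the higher share rose from 51.3% to 68.8% in HD150, from 53.5% to 68.5% in HD252 and from 50.5% to 71.4% among the same-direction genes. With voom on the deposited scaling the last share was 60.7%.

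Which of the 6 cultivars the HD mean differed from was then taken one cultivar at a time. OC164 differed least, in 689 genes (4.02% of those tested), 320 higher (1.87%) and 369 lower (2.15%) in the HD mean. TH-5 followed with 2327 genes (13.6%), 1218 higher (7.11%) and 1109 lower (6.47%). TH-6 had 3059 genes (17.9%), 1643 higher (9.59%) and 1416 lower (8.27%), and Infinite Gold 3392 (19.8%), 1752 higher (10.2%) and 1640 lower (9.57%). PRIMO differed in 6974 genes (40.7%), 3432 higher and 3542 lower, the latter 20.7% of those tested. CRUSER differed in 7097 (41.4%), 3657 higher (21.3%) and 3440 lower (20.1%). The median absolute difference over all tested genes ran in the same order as the counts, from 0.294 against OC164 and 0.320 against TH-5 to 0.530 against PRIMO and 0.540 against CRUSER. The fit assumes 1 spread for all cultivars.

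The OC164 count rested on single libraries. It was 1694 without OC164 replicate 2 and 174 and 202 without OC164 replicate 1 and 3. It was also 344 and 407 without HD150 replicate 1 and 2, 331 and 320 without HD252 replicate 1 and 2, and 1066 without CRUSER replicate 1. Under both other filters, quantile normalization, the other moderation, array weights, voom with either scaling, and with each library left out, the OC164 count was the lowest of the 6 cultivars. TH-5 gave 1276 and 1255 genes without its replicate 2 or 3. TH-6 gave 1503 and 1642 genes without its replicate 2 or 3, and Infinite Gold 2239 and 2252 without its replicate 1 or 3. The PRIMO count was at least 4955 and the CRUSER count at least 5430 with any 1 library left out. Which of these is higher also turned: without CRUSER replicate 1 the counts were 7405 for PRIMO and 5430 for CRUSER, with quantile normalization 7183 and 7008, with voom on library totals 7188 and 6048, and with array weights 9649 and 5365. Array weights gave TH-5 6066, TH-6 5056 and Infinite Gold 6040 genes, so the order among the cultivars other than OC164 depends on the weighting of libraries. The higher share against OC164 was 46.4%, and 80.4% with voom on library totals, where the median of all genes moved from 0.03 to 0.29. It was 32.9% with voom on the deposited scaling. Against CRUSER it was 51.5% and 62.5%, and against Infinite Gold 51.7% and 40.9%, in the main test and with voom on library totals. With voom on the deposited scaling it was 43.1% against CRUSER and 47.7% against Infinite Gold.

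**Figure D2:**
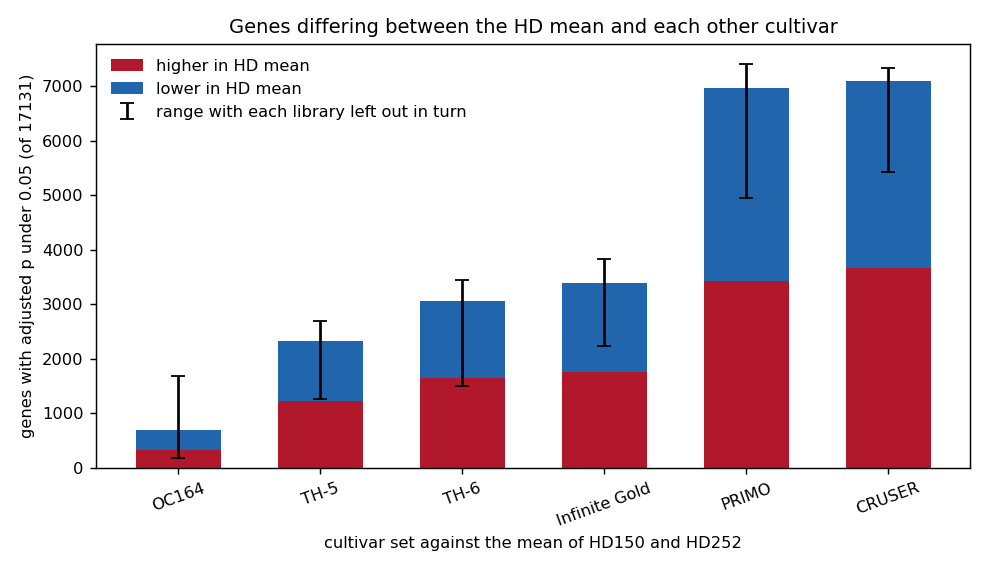
Number of genes with adjusted p under 0.05 (of 17131, limma) between the mean of HD150 and HD252 and each other cultivar, split into higher (red) and lower (blue); whiskers give the range of the total when each of the 24 libraries is left out in turn. OC164 has 689 genes with a range of 174 to 1694, and CRUSER 7097 with a range of 5430 to 7328.

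Nearly the same order held within the 1709 same-direction genes. Against PRIMO 94.6% of them passed in their direction and against CRUSER 94.2%, followed by Infinite Gold with 76.8%, TH-6 with 70.9% and TH-5 with 48.9%. Against OC164, 205 of the 1709 genes passed. Of all tested genes, 4.02% passed against OC164 in either direction, 13.6% against TH-5 and 17.9% against TH-6. Infinite Gold had 19.8%, PRIMO 40.7% and CRUSER 41.4%. Against every cultivar, OC164 included, the share was higher among the 1709 genes, which their choice favours. The OC164 mean was the nearest of the 6 to the HD mean in 56.9% of the 1709 genes, against 27.6% of all tested genes. TH-5 was nearest in 24.2%, against 21.7%. The most frequent pattern, 454 genes (26.6%), was a gene that passed against every cultivar but OC164, and next came 394 genes (23.1%) that passed against all but TH-5 and OC164. OC164 lay on the far side of the HD mean in 331 of the 1709 genes, and 8 of those passed in that direction. These patterns and far-side counts were not taken over all tested genes, where OC164 also had the lowest share passing. They are therefore not read as a trait of the 1709 genes. As the far cultivars weigh most in a mean of 6, the choice of genes itself favours genes far from PRIMO and CRUSER.

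**Figure D3:**
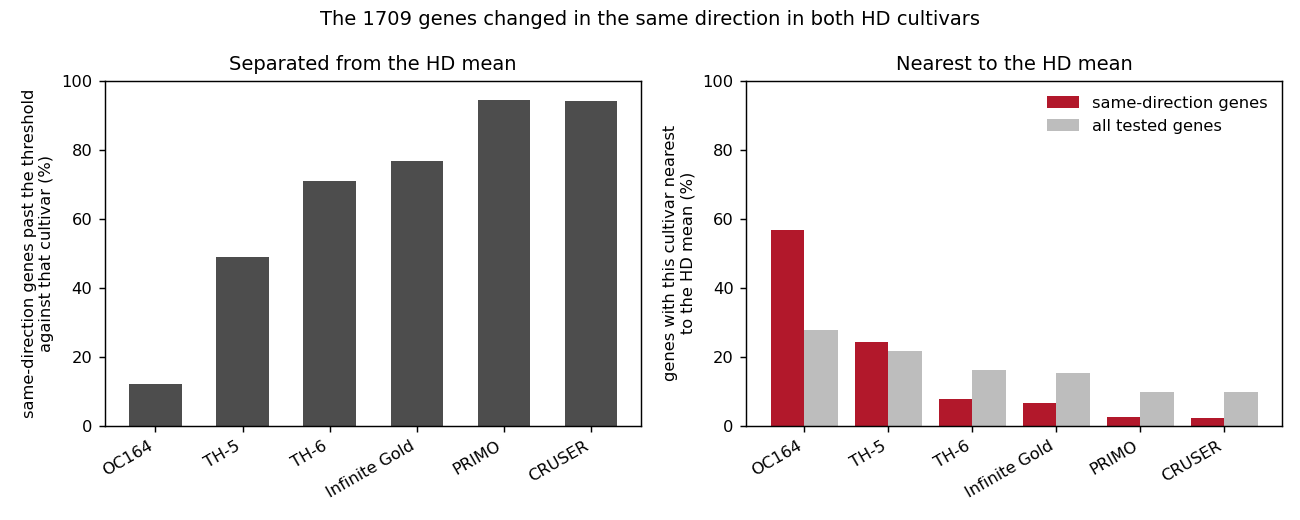
Left, share of the 1709 same-direction genes in which the HD mean also passed the threshold against each single cultivar; right, share of genes in which that cultivar's mean was the nearest to the HD mean, for the same-direction genes (red) and all 17131 tested genes (grey). OC164 has the lowest share on the left, 205 genes, and is nearest in 56.9%. It also has the lowest share among all tested genes, of which 4.02% passed against it.

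Some of the genes with the largest differences were shared between the HD cultivars and part of the others. MELO3C015130.2 had 4458 to 7707 reads in the 6 HD libraries, 6201 ± 2974 in OC164 and 4544 ± 2305 in TH-6 (SD, n = 3 each). TH-5, PRIMO, CRUSER and Infinite Gold had means from 28.4 to 50.9 reads. The HD mean was higher by 6.38 ± 0.29 than TH-5 (SE, limma adjusted p = 5.96e-12) and by 6.63 ± 0.29 than Infinite Gold (adjusted p = 8.31e-12). F39 and TTDV libraries were at the low level, at most 89.1 and 76.8 reads. The 24 Weslaco libraries thus fell on a high and a low level, with none of them between 64.2 reads in CRUSER replicate 2 and 2631 in TH-6 replicate 1.

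MELO3C027408.2 followed the same division. It had 1210 to 2044 reads in the HD libraries, 2032 ± 1076 in OC164 and 1257 ± 584 in TH-6 (SD, n = 3 each), and means from 0.23 to 3.78 reads in the other 4 cultivars, where 7 libraries had no read. The difference from TH-5 was 6.41 ± 0.34 (SE, limma adjusted p = 6.77e-11). The highest F39 library had 15.2 reads.

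MELO3C034452.2 divided the cultivars in another way. It had 417 to 471 reads in HD150 and 608 to 706 in HD252, and was also read in PRIMO (448 ± 167), Infinite Gold (445 ± 51.2), CRUSER (334 ± 96.9) and TH-6 (180 ± 27.3; SD, n = 3 each). No read was found in any of the 3 OC164 or 3 TH-5 libraries, OC164 replicate 2 included. Outside Weslaco the level was not fixed by cultivar label, as F39 libraries ran from 0 to 1067 reads and TTDV libraries from 0 to 1236. The HD mean exceeded OC164 by 4.98 ± 0.19 (SE, limma adjusted p = 4.12e-13), a fitted value that is no bound on the fold.

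Among the same-direction genes that did not overlap with the cultivar in question, MELO3C023903.2 showed the largest rise against TH-6, PRIMO, CRUSER and Infinite Gold. It had 12905, 50449 and 4615 reads in HD150 and 79984, 89131 and 19104 in HD252. In OC164 it had 53064, 123376 and 5037 reads, which overlap with the HD libraries, and elsewhere the cultivar means ran from 9.34 in PRIMO to 749 in TH-5. The HD mean was higher than PRIMO by 9.61 ± 1.04 (SE, limma adjusted p = 3.21e-06), than CRUSER by 8.86 ± 1.04 (adjusted p = 8.34e-06), than TH-6 by 8.12 ± 1.04 (adjusted p = 4.98e-05) and than Infinite Gold by 7.49 ± 1.04 (adjusted p = 9.61e-05). Its libraries within a cultivar spread over more than an order of magnitude in HD150 and OC164.

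**Figure D4:**
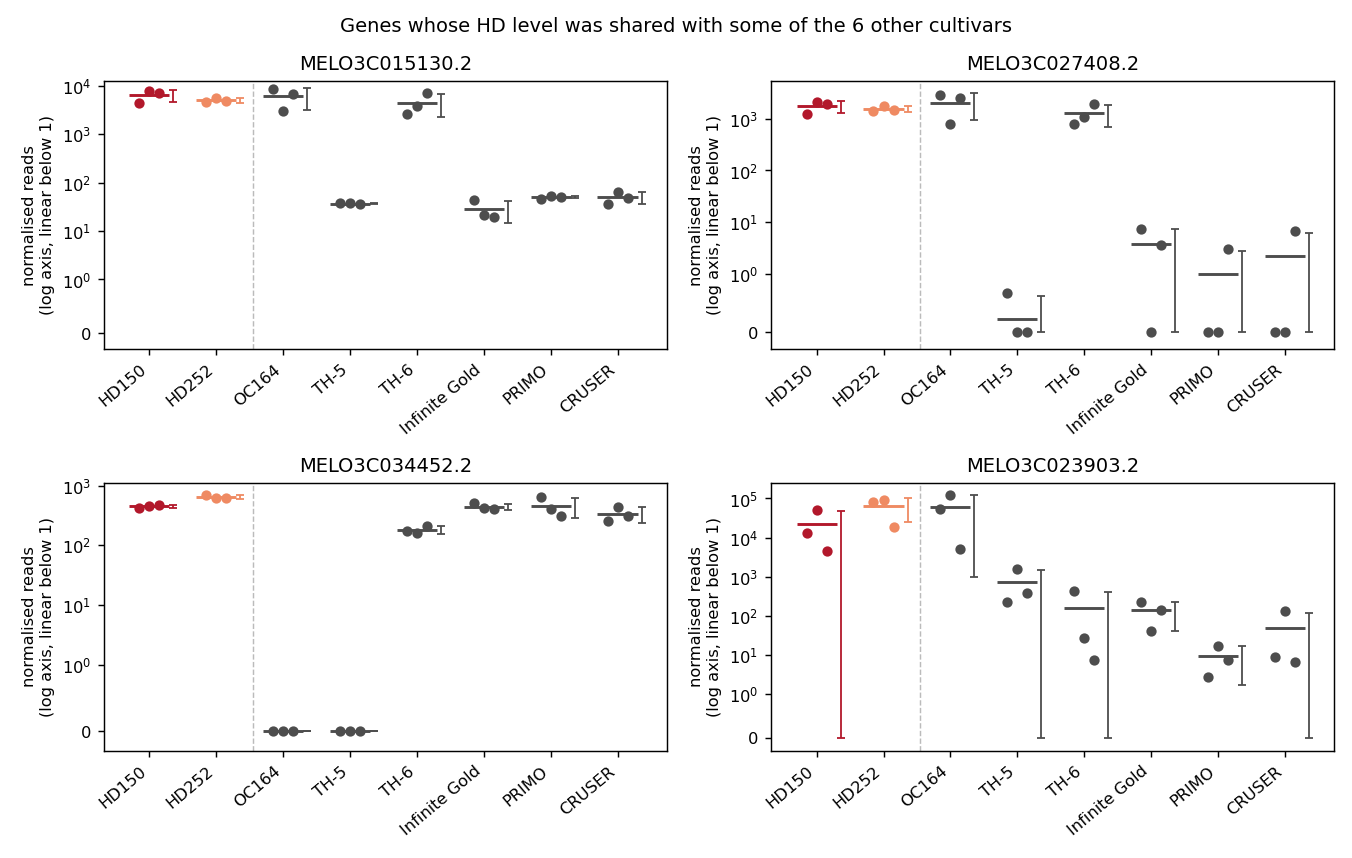
Normalised reads per library (points, n = 3 per cultivar; bar, mean; whisker, SD, drawn down to 0 where it exceeds the mean; log axis, linear below 1) of 4 genes that were high in HD150 and HD252 and in some other cultivars. MELO3C015130.2 and MELO3C027408.2 are also high in OC164 and TH-6, MELO3C034452.2 has no read in OC164 or TH-5, and MELO3C023903.2 is high in OC164.

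MELO3C021688.2 was high in the HD cultivars against PRIMO (difference 8.95 ± 1.00, SE, limma adjusted p = 3.37e-06) and CRUSER (6.57 ± 1.00, adjusted p = 7.42e-05). It had 224860 ± 37292 reads in HD150 and 170550 ± 144341 in HD252 (SD, n = 3 each), against 354 ± 234 in PRIMO and 2857 ± 2673 in CRUSER. OC164 (281499 ± 253272) overlapped with the HD libraries, and TH-5 had 98235 ± 71722. MELO3C027040.2, higher than TH-6 by 5.49 ± 0.55 (adjusted p = 1.84e-06), had 146 to 431 reads in HD150 and 1787 to 15706 in HD252, against 2.89 ± 1.16 in TH-6 and 397 to 2484 in OC164.

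The falls named for single cultivars were likewise uneven over the others. MELO3C007961.2 had 17.8 to 45.0 reads in HD150 and 2.94 to 8.68 in HD252, against 9937 ± 8387 in PRIMO and 3763 ± 1742 in CRUSER (SD, n = 3 each). The differences were -7.48 ± 0.70 (SE, limma adjusted p = 4.88e-07) and -6.41 ± 0.70 (adjusted p = 2.89e-06), while OC164, at 53.3 ± 45.7 reads, was close to HD150. MELO3C009383.2 was lower than PRIMO by 7.33 units (-7.33 ± 0.77, adjusted p = 1.59e-06), at no more than 17.8 reads in any HD library against 5117 ± 2209. MELO3C018122.2 was lower than CRUSER (-7.22 ± 0.82, adjusted p = 5.25e-06), at 5.45 to 216 reads in the HD libraries against 11927 ± 5761.

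MELO3C018937.2 was lower in the HD mean than in TH-5 (-5.20 ± 0.46, SE, limma adjusted p = 2.8e-07), with 2.73 to 25.4 reads in the HD libraries against 1605 ± 905 (SD, n = 3). OC164 and Infinite Gold were as low as the HD cultivars, at 7.79 ± 5.77 and 8.83 ± 6.47 reads. MELO3C016588.2 had 0 to 8.18 reads in the HD libraries, 13 recovered reads in all, against 730 ± 341 in TH-6 (-4.95 ± 0.39, adjusted p = 4.81e-08), with TH-5 at 2.49 ± 1.09. MELO3C008331.2 was lower than Infinite Gold (-4.39 ± 0.52, adjusted p = 1.12e-05), at 1.34 to 52 against 943 ± 68.9 reads. PRIMO and CRUSER had higher means of this gene (1560 and 1532 reads), and OC164 and TH-5 had 70.9 and 71.8. MELO3C002175.2 was lower than OC164 (-4.82 ± 0.92, adjusted p = 0.0081), at 733 to 11298 against 16760, 62768 and 674442 reads. Without OC164 replicate 3, which holds the last of these values, the adjusted p was 0.057.

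Only 84 genes separated the HD mean from each of the 6 cultivars singly in the same direction, 52 higher and 32 lower (0.490% of those tested). Of these, 67 were among the 1709 same-direction genes. In 86 genes (0.502%) the 6 HD libraries did not overlap with the 18 others, 37 above (0.216%) and 49 below (0.286%), and 33 of the 84 were among these. The count of 84 moved with single libraries of several cultivars. It was 169 without OC164 replicate 2 and 32 and 38 without OC164 replicate 1 and 3. It was 47 and 50 without HD150 replicate 1 and 2, 40 and 34 without HD252 replicate 1 and 2, and 54 and 52 without TH-5 replicate 2 and 3. Higher genes made up 61.9% of the 84, but 75.8% with voom on library totals and 47.4% with voom on the deposited scaling, so no balance of direction can be read from it.

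MELO3C014991.2 stood first among the lower genes here too, with its smallest difference against CRUSER (-4.67 ± 0.47, SE, limma adjusted p = 6.18e-07) and its largest against TH-6 (-6.61 ± 0.47, adjusted p = 1.15e-08). MELO3C005323.2 came next, at 297 to 388 reads in HD252 and 519 to 1877 in HD150 against 1339 to 17613 in the others, with differences from -1.92 ± 0.45 against TH-5 (adjusted p = 0.00779) to -3.87 ± 0.45 against CRUSER (adjusted p = 4.75e-06). HD150 overlapped with the other cultivars in this gene. Among the higher genes, MELO3C010748.2 differed by at least 2.15 ± 0.63 (against TH-6, adjusted p = 0.0238) and at most 3.48 ± 0.63 (against OC164, adjusted p = 0.00532). It had 338, 39.5 and 521 reads in HD150 and 1093, 618 and 755 in HD252. F39 libraries reached 139.5 reads and TTDV libraries 526.5, with a TTDV median of 160.5, so such levels were also found outside Weslaco. HD150 replicate 2 lay within the range of TH-6 (1.5 to 299.5 reads). It also lay below every Infinite Gold library (41.9 to 108 reads) and below TH-5 replicate 1 (57.4 reads). With voom on the deposited scaling the adjusted p against OC164 was 0.0703.

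MELO3C018664.2 was the other. It had 186, 524 and 77.4 reads in HD150 and 3511, 6408 and 1157 in HD252, and no read in 12 of the 18 other libraries. OC164, at 86.7, 690 and 64.9 reads, overlapped with HD150, and no other of the 18 exceeded 3.99. The HD mean was higher than OC164 by 2.05 ± 0.55 (SE, limma adjusted p = 0.0409). F39 and TTDV libraries reached 7.42 and 4.06 reads.

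HD150 and HD252 also differed from each other. The direct test passed for 1013 genes (5.91% of those tested), 558 higher (3.26%) and 455 lower (2.66%) in HD252. Of the 1709 same-direction genes 61 were among them, and in 46 of these HD252 lay farther from the 6 other cultivars. Their choice by the same sign disfavours such a difference. HD252 also lay farther over all tested genes, with a median absolute difference of 0.41 against 0.318 in HD150. The 61 genes that passed in opposite directions all passed the direct test, which their opposite signs all but fix. The count was 528 and 511 without HD150 replicate 1 and 3, and 517 and 336 without HD252 replicate 1 and 2.

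In 89 genes (0.520%) HD150 passed against the 6 cultivars and against HD252 with no overlap between its 3 libraries and the other 21, and HD252 did so in 261 genes (1.52%). The named genes of HD150 were chosen for this difference, so their values describe it. MELO3C015852.2 had 1032, 502 and 1211 reads in HD150 and 21.4, 168 and 33.3 in HD252, against at most 14.7 in the other Weslaco libraries outside Infinite Gold, which had 212 ± 141 (SD, n = 3). CRUSER had no read in its 3 libraries. MELO3C010846.2 had 3303, 6324 and 1281 reads in HD150, above all 21 other Weslaco libraries, while HD252 (86.8 to 640) lay within the range of the other cultivars. High values were also found outside Weslaco, as F39 and TTDV libraries reached 3514 and 10643 reads. HD150 stood lowest of the Weslaco cultivars in MELO3C026600.2, at 58.6 to 103 reads against 420 to 486 in HD252 and 110 or more in the other cultivars. F39 libraries of this gene went down to 18.4 reads and TTDV libraries to 199. HD150 was also lowest at Weslaco in MELO3C005737.2, at 12.3 to 45.7 against 123 to 175 in HD252. The latter gene was at 107 to 633 reads in the other 18 libraries.

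For HD252, MELO3C015419.2 had 85.8, 187 and 289 reads, against 13192 to 56388 in HD150 and 2865 to 203230 in the 18 others. HD150 did not differ from the 6 cultivars in this gene past the threshold (difference -0.32 ± 0.83, SE, limma adjusted p = 0.828), and HD252 did (-7.13 ± 0.83, adjusted p = 8.61e-06). MELO3C027741.2 was close to unread in HD252, at 0, 8.06 and 39.2 reads, while all other Weslaco libraries had 408 or more and HD150 had 1036, 5622 and 2424. Low values of both genes are not peculiar to HD252 over the series, since the median F39 and TTDV libraries had 6.54 and 8.89 reads of the first and 0.35 and 1.18 of the second. MELO3C007779.2 was high in HD252, at 2100, 2288 and 1026 reads against 34.2 to 363 in HD150 and at most 509 in the other 18 Weslaco libraries. The highest F39 library had 524 reads.

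**Figure D5:**
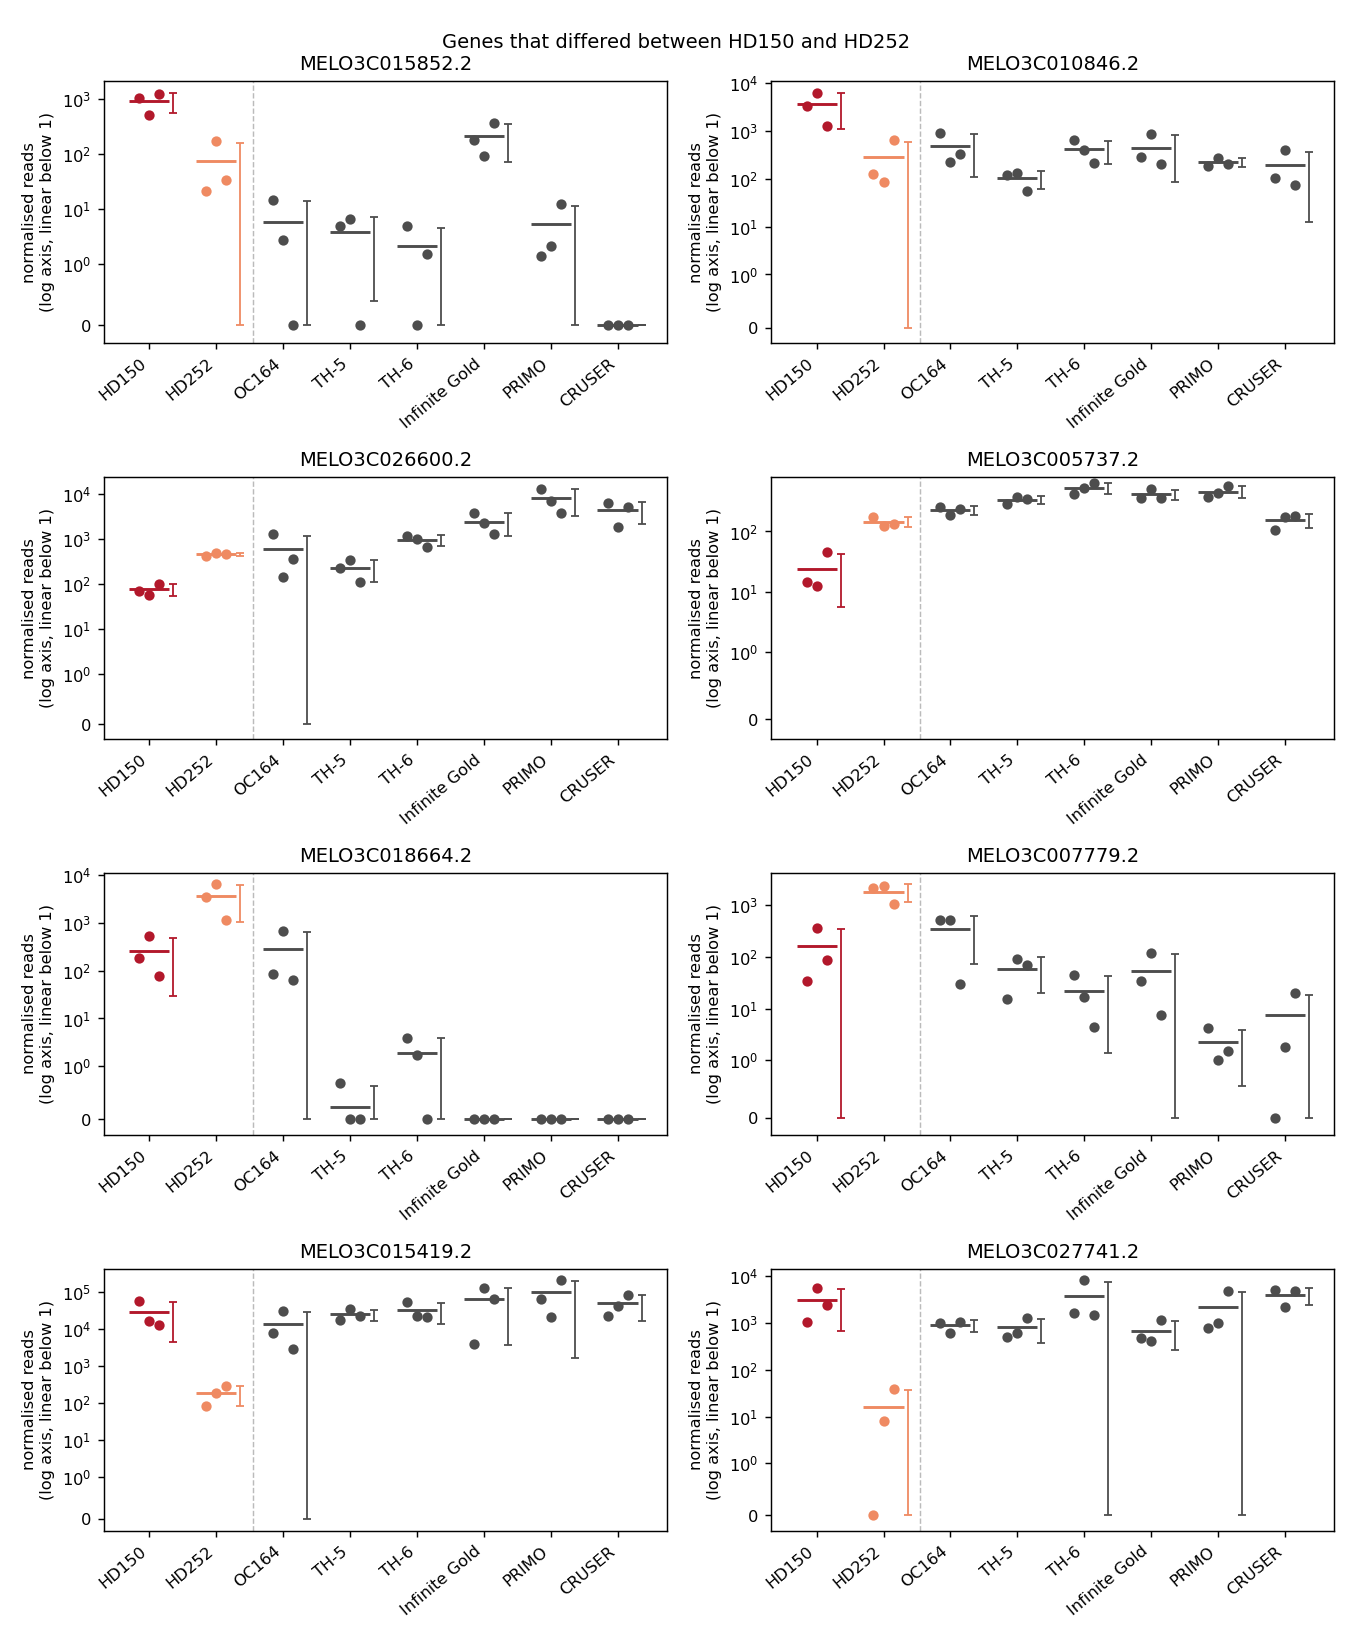
Normalised reads per library (points, n = 3 per cultivar; bar, mean; whisker, SD, drawn down to 0 where it exceeds the mean; log axis, linear below 1) of the 8 genes named for HD150 (upper 4 panels) and HD252 (lower 4 panels). HD252 lies at 85.8 to 289 reads of MELO3C015419.2, where every other library has 2865 or more.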

How the data were processed

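RNA of fruit was sequenced in 24 Weslaco libraries (mRNA kit, per the labels' protocols). The deposited values are variance-stabilised on a log2-like scale, 1 column per library and 29980 gene IDs. DESeq and DESeq2, without version, are the tools in the submitters' processing notes. Aligner, counter, build and gene models were not given in the sources used here; 0 reads stand at 4.182278, the minimum. Inverting the transform gave whole reads (at least 99.9555% of values within 0.05 of a whole number in each library). The transform understates changes of low genes: a doubling from 10 reads is 0.405 units and from 1000 reads 0.975.

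Genes with at least 3 libraries 1 unit above the lowest value (9.08 reads) were tested: 17131. limma 3.58.1 (R 4.3.3) fitted 1 coefficient per cultivar with trend and robust moderation, and Benjamini-Hochberg adjustment ran over all tested genes per comparison. On simulated data the fit was checked. There the cultivars differed only by changes planted in the HD cultivars, so the check does not cover differences among the other cultivars. The reference table (USDA_Cmelo_AY_1.0) matched 0 IDs, so gene lists by name were not tested. Members and lists were chosen with earlier results of these data known. At most 2 rising and 2 falling IDs were named per comparison, by largest difference: for the HD mean and for each HD cultivar among genes whose libraries did not overlap with all others (for a single HD cultivar, also differing from the other HD cultivar), for each single cultivar among same-direction genes not overlapping with it, and against each of the 6 by the smallest of the 6 differences. Alternatives were the filter, quantile normalization, moderation, array weights, voom on recovered reads, cultivar means as the unit, and leaving out each cultivar or library. voom with the deposited size factors was added after the data were seen.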

Additional observations from a re-analysis of the deposited data

Results flagged for a closer look

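In 9 named genes the difference from the 6 other cultivars was not the same in HD150 and HD252, by the direct limma test of HD252 minus HD150. The difference was -3.35 ± 0.48 (SE, adjusted p = 0.00022) for MELO3C015852.2, -3.69 ± 0.72 (adjusted p = 0.0046) for MELO3C010846.2, 2.17 ± 0.61 (adjusted p = 0.0409) for MELO3C026600.2 and 1.79 ± 0.25 (adjusted p = 0.000213) for MELO3C005737.2. It was 3.65 ± 0.63 (adjusted p = 0.00149) for MELO3C018664.2, 3.58 ± 0.78 (adjusted p = 0.00903) for MELO3C007779.2, -6.80 ± 1.09 (adjusted p = 0.000967) for MELO3C015419.2 and -6.11 ± 0.77 (adjusted p = 0.000112) for MELO3C027741.2. These 8 were named by a rule that required this difference. The ninth, MELO3C027040.2, was named for TH-6 and differed by 4.21 ± 0.64 (adjusted p = 0.000511), with 268 ± 147 reads in HD150 and 7431 ± 7323 in HD252 (SD, n = 3 each). Groups of 3 libraries are too small for a test of outlying libraries.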

How the results depend on the processing

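For the HD mean against the 6 cultivars the count was 1 with cultivar means as the unit, in place of 6060. With array weights the counts were 5189 (HD150), 8699 (HD252), 3213 (both HD cultivars in the same direction), 4375 (HD252 against HD150), 6066 (TH-5), 5056 (TH-6) and 6040 (Infinite Gold). Quantile normalization gave 425 genes against OC164. The same-direction count was 1099 without PRIMO and 2689 without OC164. The causes were not tested. Leaving out each library in turn gave 4852 to 6338 genes for the HD mean, 1367 to 3294 for HD150, 3029 to 5797 for HD252, 815 to 1976 in the same direction, 336 to 1222 for HD252 against HD150, and 32 to 169 against each of the 6. Against single cultivars the ranges were 1255 to 2693 (TH-5), 1503 to 3453 (TH-6), 4955 to 7405 (PRIMO), 174 to 1694 (OC164), 5430 to 7328 (CRUSER) and 2239 to 3832 (Infinite Gold).

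Of the 39 results on named genes, 1417 of 1419 recomputed values kept direction and side of the threshold, the exceptions being MELO3C010748.2 and MELO3C002175.2 against OC164. These genes were chosen for their large differences and the refits share most libraries, so this count is no independent check. With cultivar means as the unit 6 of 7 missed the threshold (adjusted p from 0.0884 to 0.328). No paired analysis was possible because the columns carry no replicate number shared between cultivars. The 8 cultivars, split 2 against 6, allow no exact two-sided permutation p below 0.0714. The shallow CRUSER libraries (4041908 to 7806433 reads) limit what can be seen in weakly read genes.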

Other observations

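Absence of reads was examined over all 29980 gene IDs, a search made after the values were seen. In 15 genes no read was found in any of the 6 HD libraries (88396467 reads in all) while the median of the 18 other libraries was above 10 reads. Their medians ran from 12.8 to 90.7 reads, and between 12 and 17 of the 18 libraries had a read. All 15 were among the same-direction genes, which follows from the choice. The choice did not fix which other cultivar lacked them: 13 of the 15 were also without a read in all 3 OC164 libraries, against 1 in TH-5, 1 in CRUSER and 0 in TH-6, PRIMO and Infinite Gold. OC164 libraries had a read in 17591 to 18057 genes, fewer than all other Weslaco libraries but CRUSER replicate 1 (16004). How many of all genes lacked a read in each cultivar was not counted, so the 13 have no background share. Over all F39 libraries 1 of the 15 was without a read, and over all TTDV libraries 0. A count of 0 allows up to 3 reads per library, and covers counting error only.

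With the sides exchanged, 0 genes had no read in the 18 other libraries and a median above 10 reads in the HD libraries. The 2 counts are not on a par, since no read in 18 libraries is a stricter demand than in 6. A criterion that asks for a read in every library of 1 side was also applied. A single gene, MELO3C029049.2, had a read in all 6 HD libraries and none in the 18 others. Its levels were low, at 13.7, 5.45 and 6.34 reads in HD150 and 0.67, 6.82 and 2.94 in HD252, or 1 to 16 recovered reads per library. No gene was read in all 18 other libraries and in none of the HD libraries.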
